A study of Mus musculus with 25 samples.

Results

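Enzymes that handle xenobiotics and retinoids were followed across isolated lymphoid follicles (ILFs) of the mouse jejunum and the follicle-associated epithelium (FAE) that covers them. Members were chosen by name, from 7 families: cytochromes P450 (Cyp), UDP-glucuronosyltransferases (Ugt), glutathione transferases (Gst), sulfotransferases (Sult), carboxylesterases (Ces), alcohol dehydrogenases (Adh) and aldehyde dehydrogenases (Aldh). Of 151 genes with such names, 57 had at least 3 UMIs in at least 3 of the 25 libraries and were kept, among 24089 genes in the table and 9956 genes that passed the same minimum. A UMI is a tag given to each captured mRNA molecule, so that a UMI count is a count of molecules. The names were not chosen by any difference between segments, but a gene could pass the minimum through a single segment where it was high. Names alone also bring in relatives with other duties, among the members Cyp51 of sterol synthesis, Aldh18a1 of proline synthesis and Aldh1l1 of folate metabolism. The Ces members include Ces2d-ps (45 UMIs), which GENCODE annotates as an unprocessed pseudogene.

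The libraries came from 2 untreated C57BL/6 male mice, 3 months of age, on regular chow. Laser capture microdissection took 5 segments: the FAE top (FAET), the FAE bottom (FAEB), the bottom of a neighbouring villus (VB), the ILF bottom (ILFB) and the ILF top (ILFT), each in 5 repeats. Mouse 1 gave repeats 1 and 2, and mouse 2 gave the other 3. Each library pooled pieces of several follicles, which were found by histology and not by any gene. Since repeats of 1 mouse are not separate animals, p-values measure the spread between these libraries, which may be technical in part.

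Small molecules that enter with food, bacteria or drugs meet a sequence of enzymes in enterocytes. Phase I enzymes such as the P450s, carboxylesterases and dehydrogenases oxidize or split them, and phase II enzymes join them to glucuronic acid, sulfate or glutathione so that they can be exported. The dehydrogenases also turn dietary vitamin A into retinoic acid, which in the intestine shapes lymphocyte homing, and P450s of the Cyp26 group break retinoic acid down.

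Library totals lay between 21529 and 213736 UMIs, from 21529 to 78224 in FAET and from 56148 to 213736 in ILFB. A list of 18 epithelial markers (Epcam, Vil1 and others) and a list of 17 immune markers (Ptprc, Coro1a and others) were used to check the labels. In 13 of the 15 libraries labelled as epithelium the epithelial list held 33.4 to 92.1 of every 10,000 UMIs and the immune list 0 to 5.38. In 6 of the 10 ILF libraries the epithelial list held 1.59 to 14.7 and the immune list 25.3 to 67.4. The markers went against the label in 6 libraries. FAET repeat 1 and VB repeat 5 held more immune than epithelial markers, and ILFB repeat 5 and ILFT repeats 1, 3 and 4 held 56.1 to 89.6 epithelial UMIs per 10,000. Of these, ILFT repeat 3 was mixed, with 30.2 immune UMIs per 10,000, inside the range of the 6 ILF libraries. ILFB repeat 5 held 3.74, and ILFT repeats 1 and 4 held 2.87 and 5.52. UMIs of the mixed library cannot be assigned to either tissue. Results are therefore given for the 25 libraries as labelled and again for the 19 libraries whose markers fit the label. Because these 19 were picked by epithelial and immune genes, values from them describe that choice as well and are not independent support. Fewer epithelial cells in a segment and less enzyme mRNA per cell cannot be told apart in such libraries.

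The 57 members held 6482 UMIs, 93.2% of all UMIs of the 151 genes. Because the protocol counts the 3′ end of each molecule, levels of different genes are compared as UMIs per 10,000 without regard to length. The Cyp family held 23.7% of the member UMIs over 19 genes, the Gst family 23.2% over 12 genes, the Ces family 15.6% over 6, the Aldh family 14.0% over 11, the Adh family 9.98% over 3, the Ugt family 8.78% over 3 and the Sult family 4.72% over 3. A few genes carried most of this: 20 members with at least 100 UMIs held 72.1% of the UMIs. The most abundant were Ces2e (577 UMIs), a carboxylesterase of the Ces2 cluster, Gstp1 (497 UMIs), Adh1 (451 UMIs), the class I alcohol dehydrogenase that also oxidizes retinol, and Ugt1a10 (410 UMIs). Member totals ran down to 15 UMIs (Gstm2), and 18 members were seen in fewer than 10 libraries, so for most members a library value rests on a handful of molecules. At the edge of the minimum, 6 members reached 3 UMIs in exactly 3 libraries (15 to 48 UMIs in all, Cyp1a1 among them), and 17 genes reached it in 2 libraries and were left out (7 to 23 UMIs).

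Copies that share sequence limit several of these names. Gstp1 and Gstp2 are near-identical neighbours, and Gstp1 took up to 81.8% of their joint UMIs in a library, so the split between them is uncertain. Ugt1a10 is the sole Ugt1a gene of the table, and the genes of that locus share their 3′ exons, so its UMIs may stand for the locus. The Ces2, Cyp3a, Cyp2c, Gsta and Gstm clusters hold close relatives as well.

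As a sum, the members followed the epithelium. They held 14.4, 21.4, 50.2, 28.8 and 47.2 of every 10,000 UMIs in FAET repeats 1 to 5, 27.0, 59.0, 57.4, 36.6 and 39.7 in FAEB, and 51.5, 26.1, 53.9, 72.4 and 8.29 in VB. In the ILF they held 10.3, 12.1, 16.2, 7.35 and 34.9 in ILFB and 49.6, 9.67, 43.0, 28.0 and 6.32 in ILFT. Epithelial and ILF libraries overlapped as labelled, at means of 39.6 ± 18.3 (SD, n = 15) and 21.8 ± 15.9 (SD, n = 10). In the 19 libraries whose markers fit the label they did not overlap, at 21.4 to 72.4 in 13 epithelial libraries and 6.32 to 16.2 in 6 ILF libraries. The other 6 libraries sat with their markers: FAET repeat 1 and VB repeat 5 had 14.4 and 8.29, inside the range of the 6 ILF libraries, and ILFB repeat 5 and ILFT repeats 1, 3 and 4 had 28.0 to 49.6, inside the range of the 13 epithelial libraries.

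**Figure D1:**
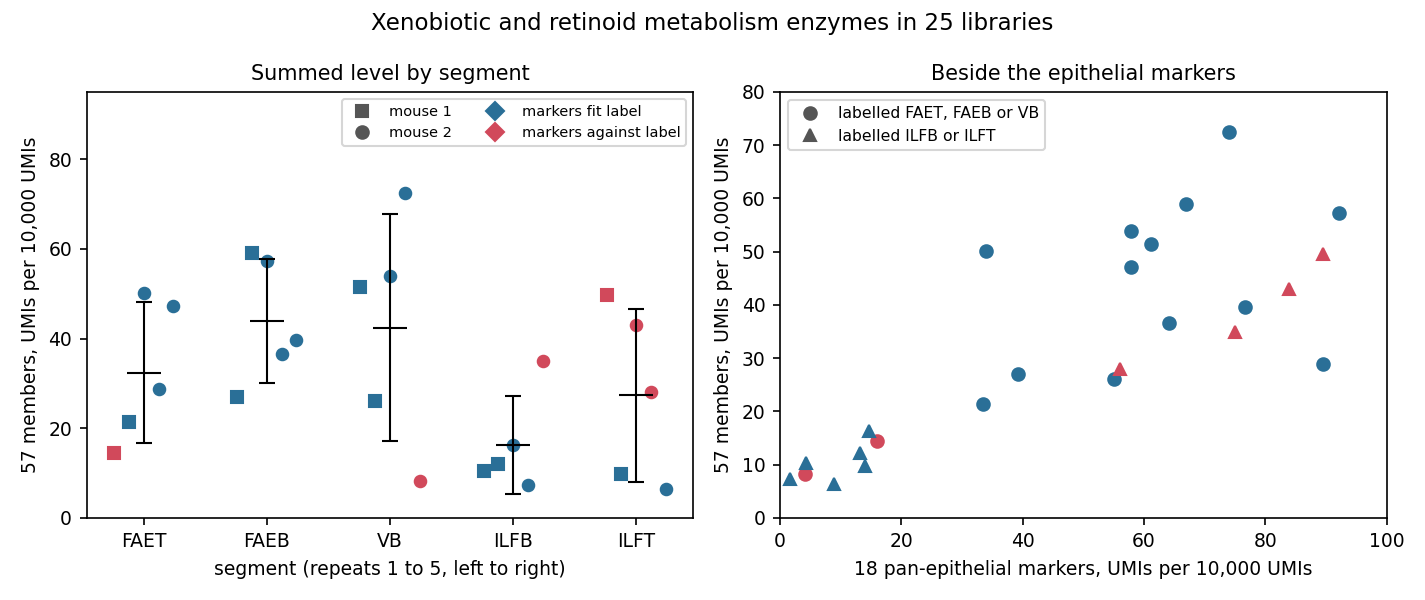
Summed level of the 57 members in UMIs per 10,000 UMIs, by segment (left; points are repeats 1 to 5, black bars are the mean and SD of 5 libraries) and against the summed level of the 18 epithelial markers in the same units (right; each point is a library). Libraries whose markers fit the label are blue and the 6 whose markers go against it are red; the blue ILF points lie between 6.32 and 16.2 and the red ILF points between 28.0 and 49.6.

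As labelled, family sums in epithelium and ILF overlapped. The Ces family averaged 6.58 ± 4.04 UMIs per 10,000 in epithelium (SD, n = 15) and 3.61 ± 4.49 in ILF (SD, n = 10), the Sult family 2.13 ± 1.90 and 0.544 ± 0.886, the Ugt family 4.23 ± 3.81 and 1.69 ± 1.99, and the Adh family 4.04 ± 2.64 and 2.21 ± 2.51. The Cyp family averaged 9.40 ± 7.35 in epithelium and 4.28 ± 3.30 in ILF, the Gst family 8.40 ± 5.06 and 5.93 ± 5.71, and the Aldh family 4.82 ± 2.80 and 3.49 ± 1.73. In the libraries whose markers fit the label, the Ces family averaged 7.46 ± 3.55 UMIs per 10,000 in epithelium (SD, n = 13) and 0.486 ± 0.363 in ILF (SD, n = 6), and the Sult family 2.45 ± 1.84 and 0.125 ± 0.170. The Ugt family averaged 4.84 ± 3.73 in epithelium and 0.679 ± 0.596 in ILF, the Adh family 4.64 ± 2.28 and 0.697 ± 0.633, the Cyp family 10.2 ± 7.57 and 2.63 ± 0.942, and the Gst family 9.27 ± 4.87 and 2.74 ± 1.41. The Aldh family averaged 5.05 ± 2.89 in epithelium and 2.98 ± 1.35 in ILF, where its ranges overlapped (0.464 to 9.86 against 1.67 to 5.34). Ranges did not overlap for the Ces family (2.26 to 13.2 in epithelium against 0 to 0.982 in ILF).

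**Figure D2:**
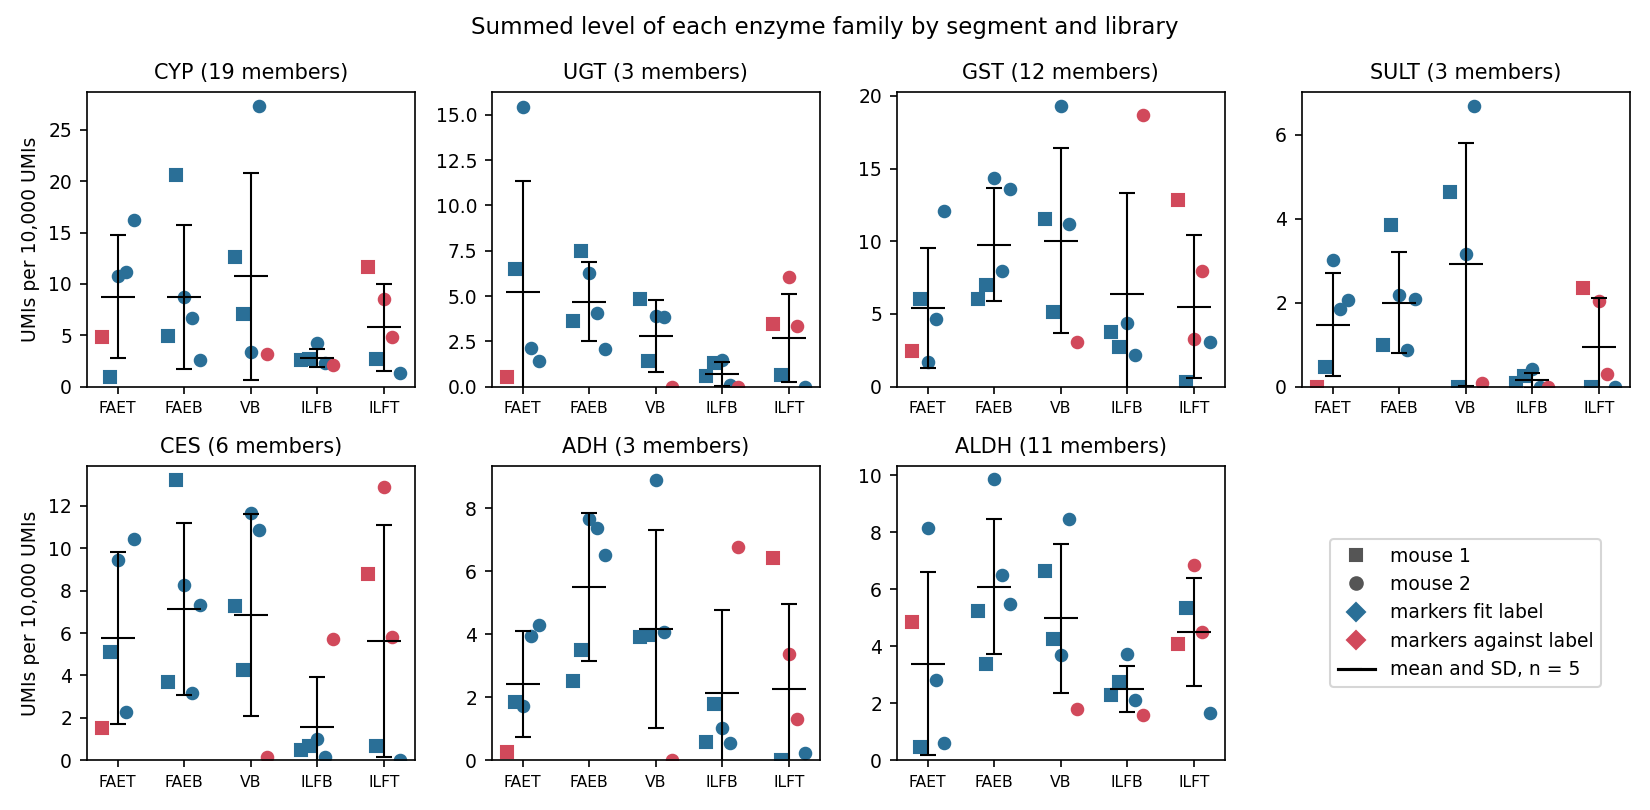
Summed level of each of the 7 families in UMIs per 10,000 UMIs, by segment (points are libraries, squares mouse 1 and circles mouse 2, black bars the mean and SD of 5 libraries). The Ces points of ILF libraries in blue lie at or below 0.982, while the Aldh points of both tissues overlap.

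The comparison of epithelium with ILF asks in which tissue each enzyme is found. It set the mean of FAET, FAEB and VB against the mean of ILFB and ILFT in edgeR's quasi-likelihood test with a term for mouse, and adjusted p-values over 9956 genes by Benjamini-Hochberg. Of the 57 members, 42 had a positive and 15 a negative log2 fold change, with a median of 1.17, beside a median of -0.48 over all genes tested, of which 34.2% were positive. Only Ces2a and Sult2b1 passed an adjusted p of 0.05, both higher in epithelium. In all, 3.03% of the genes tested passed in either direction and 0.472% passed as higher in epithelium. At an unadjusted p under 0.05 there were 15 members (26.3%), 12 higher and 3 lower in epithelium, beside 19.0% of all genes. Repeats scattered widely, with a biological coefficient of variation of 1.33.

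Ces2a, a carboxylesterase that splits ester drugs and lipids (chromosome 8, 104734003 to 104741634, GRCm38), had 5, 0, 0, 4 and 7 UMIs in FAET, 3, 40, 18, 0 and 16 in FAEB and 18, 0, 13, 14 and 1 in VB, against 0, 1, 3, 0 and 0 in ILFB and 3, 0, 10, 0 and 0 in ILFT. UMIs were seen in 11 of 15 epithelial libraries. Of its 17 UMIs in ILF, 13 came from ILFT repeats 1 and 3, which held more epithelial than immune markers. The mixed repeat 3 gave 10 of them. The log2 fold change was 3.08 (SE 0.88, adjusted p = 0.0297). Without the 6 libraries it was 4.95 (SE 1.32, adjusted p = 0.00393).

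Sult2b1, the sulfotransferase of cholesterol (chromosome 7, 45729983 to 45784669), had 0, 0, 6, 9 and 10 UMIs in FAET, 2, 10, 11, 2 and 4 in FAEB and 14, 0, 1, 14 and 1 in VB, against 0, 0, 1, 0 and 0 in ILFB and 9, 0, 2, 1 and 0 in ILFT. It was close to absent from ILFB, at 1 UMI in 5 libraries, and 12 of its 13 ILF UMIs came from the libraries with epithelial markers. The log2 fold change was 3.28 (SE 0.95, adjusted p = 0.0322), and 5.38 (SE 1.42, adjusted p = 0.00348) without the 6 libraries. Within the mice, Sult2b1 averaged 0.444 UMIs per 10,000 in epithelium and 0.196 in ILF of mouse 1, and 1.07 and 0.0670 in mouse 2. Ces2a averaged 1.21 in epithelium and 0.0853 in ILF of mouse 1, and 1.11 and 0.197 in mouse 2.

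Both calls depended on the repeats: with edgeR, leaving out repeat 2, 4 or 5 ended both (adjusted p from 0.0649 to 0.22 for Ces2a and from 0.0601 to 0.241 for Sult2b1), leaving out repeat 1 ended that of Ces2a (adjusted p = 0.0744) and leaving out repeat 3 that of Sult2b1 (adjusted p = 0.111). Without repeat 5 Cyp4f18 was called, as lower in epithelium. With repeat as a block they held, at adjusted p = 0.0327 for Ces2a and 0.0429 for Sult2b1.

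In the 19 libraries 22 of 52 members tested passed, 21 higher and 1 lower in epithelium, where 17.3% of 8738 genes passed in either direction and 4.31% as higher in epithelium. With repeat as a block 9 members passed, 8 higher and 1 lower, beside 808 of 8738 genes, 194 of them higher. The 21 came from 6 of the 7 families. Among them were Ces2e (log2 fold change 4.14), Ces2c (4.30) and Ces2g (3.29), the P450s Cyp3a13 (4.12) and Cyp3a25 (4.20) of the drug-oxidizing Cyp3a group, Cyp2c68 (5.11), Cyp2d26 (4.38), and Cyp4f14 (3.57) and Cyp4v3 (4.10) of the fatty acid hydroxylases. The conjugating enzymes Ugt1a10 (2.94) and Ugt2a3 (4.10), Sult1b1 (3.56), a sulfotransferase of phenols, and Sult1d1 (4.22), Gstp1 (2.41), Gstp2 (2.92), Gsta1 (4.13) and Gsto1 (2.73) passed as well, and so did Adh6a (4.55) and Adh1. No Aldh gene passed among 10 tested, where 8 were positive with a median of 1.47.

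Ces2e, the most abundant member, shows how far the labels carried the result. It had 7, 11, 0, 7 and 23 UMIs in FAET, 22, 53, 46, 11 and 38 in FAEB and 36, 1, 28, 57 and 1 in VB, against 3, 1, 16, 3 and 24 in ILFB and 68, 1, 80, 40 and 0 in ILFT. Its highest level was in the mixed ILFT repeat 3, at 8.20 UMIs per 10,000. ILFT repeats 1 and 4, also with epithelial markers, had 5.91 and 5.81, within the range of the epithelial libraries (0 to 6.44). Its log2 fold change as labelled was 0.82 (SE 0.69, adjusted p = 0.557), against 4.14 (adjusted p = 0.00217) in the 19 libraries.

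Few members leaned to the ILF. Cyp4f18, which in mouse leukocytes hydroxylates leukotriene B4, had 6, 0, 0, 3 and 0 UMIs in FAET, 0 in every FAEB library and 0, 0, 0, 0 and 24 in VB, against 6, 7, 14, 11 and 1 in ILFB and 1, 6, 0, 0 and 6 in ILFT. The 24 UMIs of VB repeat 5 and the 6 of FAET repeat 1 fell in the libraries with immune markers, so that 3 UMIs remained in the other 13 epithelial libraries. The log2 fold change was -2.05 (SE 0.86, adjusted p = 0.16) over 25 libraries and -4.60 (SE 1.09, adjusted p = 0.00099) over 19. Gsta4, which conjugates lipid peroxidation products (log2 fold change -1.80), the formaldehyde-oxidizing Adh5 (-1.58) and the retinal dehydrogenase Aldh1a2 (-2.83) did not pass. Gsta4 had 7 UMIs in VB repeat 1, against 3 and 1 in ILFB repeats 2 and 3 and 9 in ILFT repeat 1. Most of its ILF UMIs thus lay in a library with epithelial markers. The ILF side also moved with other cell types: in the 6 ILF libraries the 7 dendritic cell markers summed to 0.667 to 5.97 and the 8 stromal markers to 5.65 to 14.6 UMIs per 10,000, against 0 to 2.04 and 0 to 2.41 in the 13 epithelial libraries. The 5 Paneth cell markers summed to 1.79 to 31.6 (median 13.0) in the 6 ILF libraries, against 0 to 14.4 (median 0.546) in the 13 epithelial libraries. Each dendritic cell and stromal marker had UMIs in ILFB, from 2 for the dendritic cell marker Xcr1 to 255 for the stromal marker Igfbp7, and their part in these values was not tested.

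**Figure D3:**
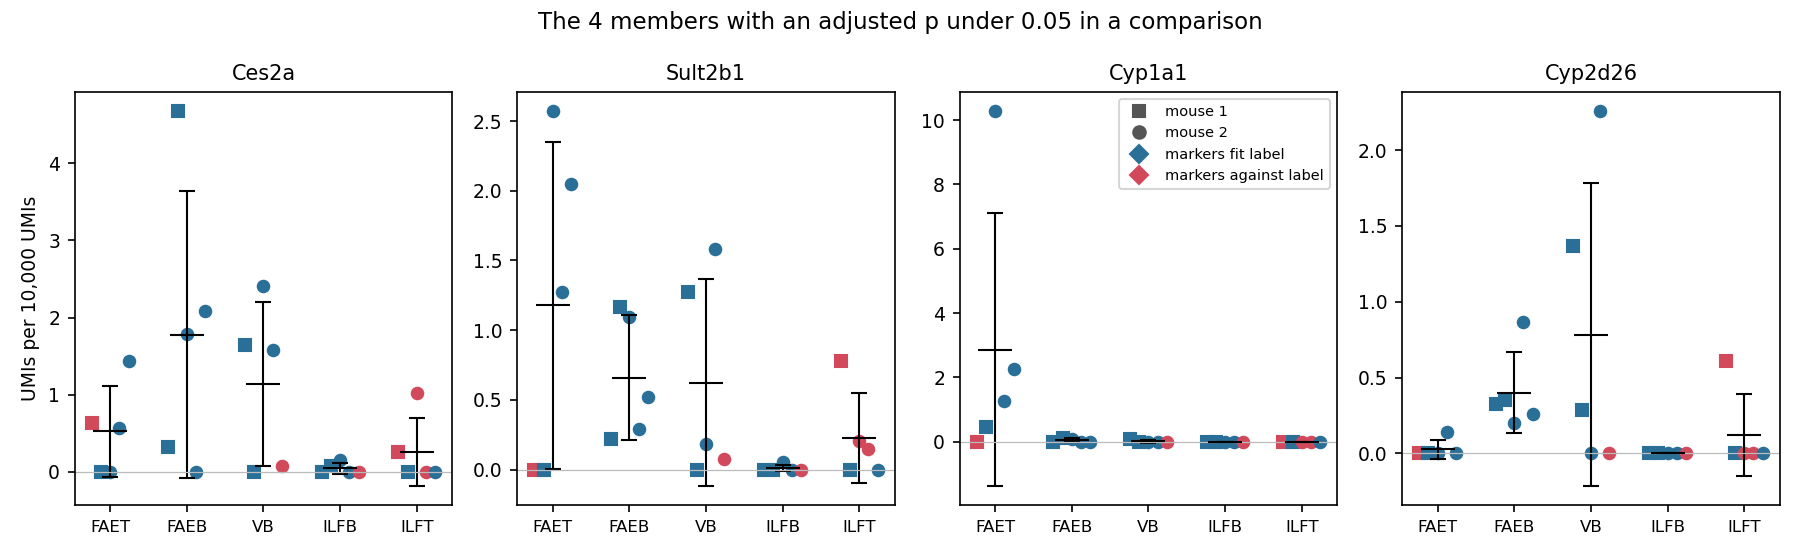
UMIs per 10,000 UMIs of the 4 members that passed in a comparison, by segment (points are libraries, squares mouse 1 and circles mouse 2, red points libraries whose markers go against the label, black bars the mean and SD of 5 libraries). Ces2a and Sult2b1 are near 0 in ILFB, and Cyp1a1 reaches 10.3, 1.27 and 2.26 in the FAET libraries of mouse 2.

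The promoters of the members were read for letters shared among them. RefSeq promoters on GRCm38.p6, 250 bases before to 50 after a start, were found for 49 of the 57 members, and 8 motifs were searched on both strands. CAAAGT, the core of sites bound by HNF4, the nuclear receptor of enterocytes and hepatocytes, stood in the promoters of 22 of the 49 members (44.9%), beside 16.1% of 27025 genes. The longer CAAAGTCCA, which contains it, stood in 5 members (10.2%), beside 0.56% of all genes. The 22 were spread over 8 of 17 Cyp genes, 5 of 10 Gst, 3 of 4 Ces, 3 of 9 Aldh, 2 of 3 Sult, 1 of 3 Ugt and 0 of 3 Adh, and close relatives such as the Cyp2c genes share ancestry and are not separate cases. GCGTG, the core of sites bound by the aryl hydrocarbon receptor (AhR), stood in 36.7% of members and 35.2% of all genes, and AGGTCA, a core letter run of nuclear receptor sites, in 16.3% and 18.1%. GTTAAT of HNF1 stood in 14.3% of members and 8.24% of all genes, AGATAA of GATA factors in 18.4% and 12.7%, TTTATG of CDX factors in 6.1% and 13.6%, and TGAGTCA of AP-1 in 14.3% and 5.95%. A match is a run of letters and not a shown binding site.

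Stretches of 80 bases are shown 5′ to 3′ on the gene's strand for the 4 members that passed a test, for Ces2e, and for the 5 with the long motif. Capitals mark CAAAGT, or its reverse complement ACTTTG, in the first 4, CAAAGTCCA in the next 5, and GCGTG in Cyp1a1. The letters next to the capitals are shared between Ces2a and Ces2e, and Cyp2c68 and Cyp2c69 are alike along the stretch.
Ces2a, chr8:104733896-104733975, plus strand: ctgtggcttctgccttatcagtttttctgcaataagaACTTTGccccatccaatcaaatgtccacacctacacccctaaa
Ces2e, chr8:104926143-104926222, plus strand: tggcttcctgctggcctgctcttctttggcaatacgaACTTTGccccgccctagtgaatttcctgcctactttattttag
Sult2b1, chr7:45759725-45759804, minus strand: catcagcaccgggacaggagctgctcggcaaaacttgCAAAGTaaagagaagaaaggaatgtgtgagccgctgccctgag
Cyp2d26, chr15:82794261-82794340, minus strand: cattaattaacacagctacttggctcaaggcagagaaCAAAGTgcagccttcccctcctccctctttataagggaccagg
Cyp3a11, chr5:145879920-145879999, minus strand: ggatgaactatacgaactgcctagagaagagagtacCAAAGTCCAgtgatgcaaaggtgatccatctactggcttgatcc
Sult1b1, chr5:87536173-87536252, minus strand: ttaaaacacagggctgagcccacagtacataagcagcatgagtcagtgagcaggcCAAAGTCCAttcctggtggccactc
Cyp2c65, chr19:39060854-39060933, plus strand: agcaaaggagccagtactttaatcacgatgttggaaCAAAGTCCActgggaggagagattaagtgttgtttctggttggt
Cyp2c68, chr19:39741135-39741214, minus strand: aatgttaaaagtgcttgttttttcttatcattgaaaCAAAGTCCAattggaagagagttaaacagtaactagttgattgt
Cyp2c69, chr19:39886801-39886880, minus strand: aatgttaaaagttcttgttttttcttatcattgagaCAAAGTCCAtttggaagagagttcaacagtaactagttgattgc
Cyp1a1, chr9:57697521-57697600, plus strand: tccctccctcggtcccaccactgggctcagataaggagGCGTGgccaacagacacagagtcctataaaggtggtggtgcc

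Both HNF4 genes of the regulator list were themselves higher in epithelium over the 19 libraries, Hnf4g with a log2 fold change of 4.19 (adjusted p = 0.0102) and Hnf4a with 3.73 (adjusted p = 0.0306). Over the 25 libraries neither passed, and Hnf4a had its 61 ILFT UMIs in repeats 1, 3 and 4, at 16, 29 and 16. Any link between these genes and the members was not tested.

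The comparisons within the epithelium ask whether the enzymes change towards the dome of the follicle. Against VB, 10 members were higher and 47 lower in FAET, with a median log2 fold change of -1.43 beside -0.56 over all genes. Against FAEB, 8 members were higher and 49 lower in FAET, with a median of -1.19 beside -0.48. None passed an adjusted p of 0.05 with edgeR, limma-voom or DESeq2 in either comparison, where 0.0100% and 0% of the 9956 genes passed with edgeR. At an unadjusted p under 0.05 there were 13 members for FAET against VB (12.5% of all genes) and 11 for FAET against FAEB (14.3% of all genes). The 2 comparisons share the FAET libraries, so their values are not independent. Without the 6 libraries the median for FAET against VB was -1.67 beside -0.62 over all genes, while for FAET against FAEB it was -1.20 beside -1.22, so that the members there did not stand below the other genes. Single libraries moved the gap to the other genes in both directions. Without FAET repeat 1, whose markers are immune, the medians were -1.34 beside -1.29 for FAET against VB and -0.95 beside -1.15 for FAET against FAEB. Without VB repeat 5, also with immune markers, they were -1.60 beside -0.04 for FAET against VB. Leaving out repeat 1 gave -0.93 beside -1.19 there, and leaving out repeat 5 gave -2.11 beside -0.03. With the study's sum as library size the split for FAET against FAEB was 16 higher and 41 lower.

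Cyp1a1 stood apart in FAET. Its P450 oxidizes the ligands of AhR, and AhR in turn switches the gene on. It had 0, 1, 24, 9 and 11 UMIs in FAET, against 0, 1, 1, 0 and 0 in FAEB and 1, 0, 0, 0 and 0 in VB, and none in the 10 ILF libraries (chromosome 9, 57687928 to 57703824). The 3 high libraries were those of mouse 2, at 10.3, 1.27 and 2.26 UMIs per 10,000, while FAET of mouse 1 gave 0 and 0.464. Pooled over libraries, FAET held 45 UMIs in 242610 and VB 1 in 415422, a ratio of 77.1 (95% interval 13.1 to 3110, counting error only), and FAEB 2 in 423381, a ratio of 39.3 (95% interval 10.3 to 334). In the ILF, 0 of 1087101 UMIs allow a limit of 3 UMIs over the 10 libraries. The pooled FAET level was 67.2 times that limit, with no error allowed for the FAET count. Of the 45 UMIs in FAET, 44 came from mouse 2, so these pooled ratios rest mostly on 1 animal. The library with 24 UMIs held 24 of the gene's 48 UMIs and was shallow, at 23314 UMIs.

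Over all 5 segments Cyp1a1 had an adjusted p of 0.00106 with edgeR. It met the minimum of 3 UMIs only in FAET repeats 3, 4 and 5, so that it became a member through the segment where it was high, and this p reads that same height and is given as a description. In the pairwise tests it did not pass, with a log2 fold change of 5.37 (SE 1.88, adjusted p = 0.345) for FAET against VB and 4.73 (SE 1.76, adjusted p = 0.307) for FAET against FAEB. For epithelium against ILF it had 3.59 (SE 1.15, adjusted p = 0.0558), and there it passed with RLE factors, library totals, the study's sum or limma-voom, and without FAET repeat 1 or VB repeat 5. These pairwise values and the pooled ratios above read that same height too and are descriptions, not support. The p over 5 segments missed the threshold with DESeq2 (adjusted p = 0.476) and could not be had where repeat 3, 4 or 5 was left out or the minimum was 10 UMIs, since the gene then missed the minimum of 3 libraries. Other genes that AhR is known to switch on had few UMIs. Cyp1b1 had 15 UMIs, 4 in ILFB repeat 3 and 11 in ILFB repeat 4, and missed the minimum. Ahrr, the repressor of AhR, had 0 UMIs in FAET, 2 in FAEB and 4 in VB, against 8 in ILFB and 18 in ILFT. All 18 lay in ILFT repeat 2, a shallow library of 29987 UMIs. Ahr itself had 27 UMIs in FAET, 17 in FAEB and 34 in VB, against 30 in ILFB and 16 in ILFT, the 16 all in repeat 5. These sums are not scaled for depth, which ran from 242610 UMIs in FAET to 691757 in ILFB.

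Aldh1b1, a mitochondrial aldehyde dehydrogenase, was the member with the smallest p between the parts of the FAE. It had 1, 0, 0, 0 and 0 UMIs in FAET and 13, 5, 38, 16 and 10 in FAEB, with 11, 0, 2, 12 and 0 in VB. Per 10,000 UMIs the FAET libraries (0 to 0.128) lay below all 5 FAEB libraries (0.585 to 3.78). Since Aldh1b1 was picked by its p in this comparison, that separation is a description and not further support. The log2 fold change was -5.63 (SE 1.61), with an unadjusted p of 0.000456 and an adjusted p of 0.307. Gstt2 was likewise at 0 in FAET, against 0, 8, 2, 0 and 11 UMIs in FAEB, and did not pass (adjusted p = 0.307).

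Other members with low values in FAET were Ugt2b34, with 1, 0, 0, 1 and 0 UMIs in FAET, against 20, 4, 13, 3 and 0 in FAEB and 32, 5, 11, 10 and 0 in VB, and Gstk1, a glutathione transferase of mitochondria and peroxisomes, with 0 in FAET against 0, 0, 5, 1 and 0 in FAEB and 6, 0, 7, 5 and 3 in VB. For FAET against VB Ugt2b34 had a log2 fold change of -4.40 (SE 1.54, adjusted p = 0.345), and Gstk1 gives no fold, since it was at 0 in FAET. FAET held the shallowest libraries, with 9 to 38 members detected per library, against 26 to 46 in FAEB and 17 to 48 in VB. Ugt1a10 went the other way, at 3, 14, 36, 8 and 7 UMIs in FAET and 15, 0, 10, 21 and 0 in VB (log2 fold change 1.24). Its level in FAET rested on repeats 2 and 3, at 6.50 and 15.4 UMIs per 10,000, against 0.384 to 1.44 in the other 3.

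**Figure D4:**
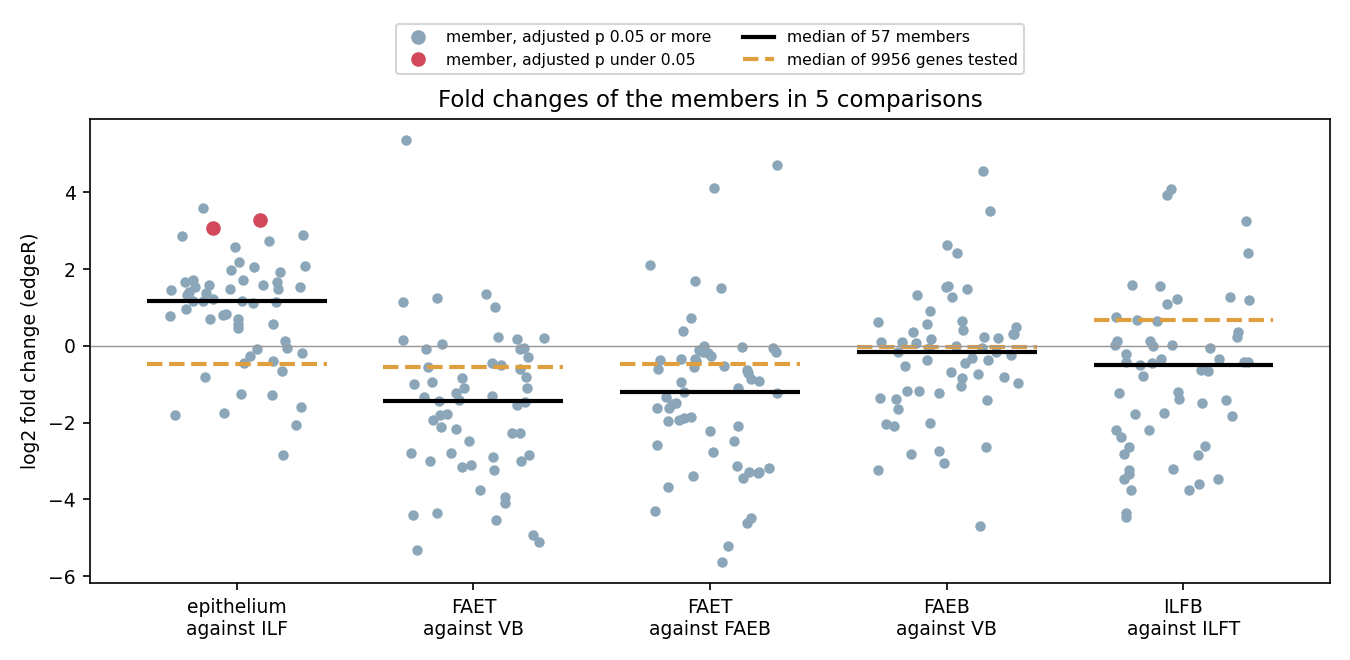
edgeR log2 fold changes of the 57 members in 5 comparisons (grey-blue points are members that did not pass, red points are Ces2a and Sult2b1, which did), with the median of the members in black and of all 9956 genes dashed. The member medians are 1.17, -1.43, -1.19, -0.17 and -0.49 from left to right, beside -0.48, -0.56, -0.48, -0.03 and 0.66 over all genes.

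FAEB against VB showed little. Of the members 25 were higher and 32 lower in FAEB, with a median of -0.17 beside -0.03 over all genes, 0 passed (0.0201% of all genes), and 5 had an unadjusted p under 0.05, beside 8.96% of all genes. DESeq2 and limma-voom called 0 members as well. The smallest p belonged to Cyp4f18, whose VB value came from the 1 library with immune markers, and to Adh5, with 0, 1, 0, 1 and 11 UMIs in FAEB against 0 in VB. Cyp20a1, a P450 with no settled substrate, had 0, 0, 0, 0 and 8 UMIs in FAEB against 0 in VB, and Aldh1a3 had 0 in FAEB against 8 UMIs in VB repeat 5. Single libraries thus carried each of these. Adh1 was the most abundant member of its family in both, at 21, 10, 57, 49 and 34 UMIs in FAEB, against 22, 6, 40, 23 and 0 in VB (log2 fold change 0.50).

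Along the follicle 20 members were higher and 37 lower in ILFB than in ILFT, with a median of -0.49 beside 0.66 over all genes. None passed with edgeR (0.0904% of all genes), DESeq2 or limma-voom, and 16 had an unadjusted p under 0.05, beside 14.3% of all genes. Those with the smallest p were Ces2c, with 1, 0, 0, 0 and 0 UMIs in ILFB against 12, 0, 25, 0 and 0 in ILFT, and Ugt2a3, with 0 in ILFB against 0, 0, 13, 6 and 0 in ILFT. All 37 Ces2c UMIs of ILFT, and all 19 of Ugt2a3, lay in libraries with epithelial markers. The mixed ILFT repeat 3 held 25 and 13 of them. On the ILFB side stood Cyp4f13, with 4, 0, 10, 3 and 0 UMIs in ILFB against 0 in ILFT, and Gstm7. The 11 ILF UMIs of Gstm7 all lay in ILFB repeat 5, a library with epithelial markers. Without the 6 libraries, which leaves 4 ILFB and 2 ILFT libraries, 41 members were higher and 11 lower in ILFB, with a median of 2.01 beside 1.88 over all genes. The direction of the median thus turned with those libraries, while the distance to the other genes shrank.

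The retinoid enzymes had low counts, and none of the retinoid members passed for epithelium against ILF over the 25 libraries. Adh1, an enzyme of the first step from retinol to retinal, had 2, 0, 4, 19 and 21 UMIs in FAET, against 0, 19, 15, 4 and 30 in ILFB and 49, 0, 19, 5 and 2 in ILFT (FAEB and VB above). Adh5 had 31 UMIs in all, Adh4 11 and Adh7 2. For the second step, from retinal to retinoic acid, Aldh1a1 had 0, 0, 0, 5 and 0 UMIs in FAET, 0, 2, 6, 0 and 0 in FAEB and 19, 0, 8, 2 and 1 in VB, against 0, 2, 0, 0 and 0 in ILFB and 11, 0, 21, 3 and 0 in ILFT. In ILF, 35 of its 37 UMIs lay in libraries with epithelial markers, 21 of them in the mixed ILFT repeat 3. Its relative Aldh1a2, which in the gut is the retinal dehydrogenase of dendritic and stromal cells, had 0 UMIs in FAET and VB and 0, 0, 0, 3 and 0 in FAEB, against 1, 3, 10, 3 and 0 in ILFB and 0, 0, 8, 0 and 0 in ILFT (log2 fold change -2.83, SE 0.94, adjusted p = 0.0675). It was thus seen in 1 of 15 epithelial and 5 of 10 ILF libraries. The 8 UMIs in ILFT lay in the mixed repeat 3. Over the 19 libraries the log2 fold change of Aldh1a2 was -1.50 and did not pass. Aldh1a3 had 26 UMIs, 17 of them in ILFB and 8 in VB repeat 5. Aldh1a7 had 3 UMIs and Aldh8a1 none. Of the P450s that clear retinoic acid, Cyp26b1 had 14 UMIs in 6 libraries and missed the minimum. Cyp26a1 and Cyp26c1 were not among the 151 genes matched by name.

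Of 31 further genes of retinoid handling, 20 were tested, of which 8 had a positive and 12 a negative log2 fold change for epithelium against ILF, with a median of -0.34. None passed as higher and 2 passed as lower in epithelium, Dhrs3, which returns retinal to retinol, and Lrat, which stores retinol as esters. Over all 9956 genes tested, 47 passed as higher and 255 as lower. Dhrs3 had 2, 0, 0, 0 and 0 UMIs in FAET, 0, 0, 3, 0 and 0 in FAEB and 0, 0, 0, 3 and 14 in VB, against 21, 18, 24, 15 and 17 in ILFB and 0, 0, 14, 5 and 5 in ILFT (log2 fold change -2.86, SE 0.88, adjusted p = 0.0429). The 14 UMIs in VB came from the library with immune markers, and all 5 ILFB libraries, the 1 with epithelial markers included, held at least 15 UMIs. Lrat had 0 UMIs in FAET and FAEB and 1, 0, 0, 0 and 3 in VB, against 4, 1, 3, 11 and 0 in ILFB and 0, 0, 0, 0 and 11 in ILFT (log2 fold change -3.15, SE 0.97, adjusted p = 0.0435). Rbp2, the retinol-binding protein of enterocytes, pointed to the epithelium (log2 fold change 2.24, SE 0.75, adjusted p = 0.0691), at 57 UMIs in FAET, 90 in FAEB and 179 in VB, against 11 in ILFB and 110 in ILFT, where repeats 1, 3 and 4 held 48, 53 and 8. Over the 19 libraries 16 genes of this list were tested, with 10 positive and 6 negative. Of these 3 passed as higher in epithelium and 2 as lower, Rbp2 (4.85, adjusted p = 0.00057), Dgat1 (3.50) and Rdh7 (3.38) against Lrat (-4.22) and Dhrs3 (-3.95). Over all 8738 genes of this fit, 377 passed as higher and 1139 as lower.

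Cyp2d26 (chromosome 15, 82790101 to 82794294), a P450 of the Cyp2d cluster, was the other member that passed over all 5 segments (adjusted p = 0.0348), where 2 of 57 members and 1.79% of all genes passed. It had 0, 0, 0, 1 and 0 UMIs in FAET, 3, 3, 2, 6 and 2 in FAEB and 15, 1, 0, 20 and 0 in VB, against 0 in every ILFB library and 7, 0, 0, 0 and 0 in ILFT. It was seen in all 5 FAEB libraries and in 1 of 5 FAET libraries. Pooled over libraries, VB held 36 UMIs in 415422 and FAET 1 in 242610, a ratio of 21.0 (95% interval 3.54 to 853, counting error only), while 0 of 691757 UMIs in ILFB allow up to 0.0434 UMIs per 10,000, against 0.867 in VB. The call was lost where any of repeats 1 to 4 was left out, with repeat as a block (adjusted p = 0.0964) and with RLE size factors (adjusted p = 0.0579). It was also lost with library totals (adjusted p = 0.0518), no count minimum (adjusted p = 0.0548), limma-voom (adjusted p = 0.102) and DESeq2. At an unadjusted p under 0.05 there were 22 members over the 5 segments (38.6%), beside 22.2% of all genes, and in the 19 libraries 19 of 52 members passed, beside 18.2% of all genes.

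The rest of the named members ranged widely between libraries. Cyp3a13 had 0, 0, 0, 16 and 23 UMIs in FAET, 5, 70, 12, 1 and 0 in FAEB and 26, 0, 4, 48 and 2 in VB, against 0, 4, 6, 0 and 0 in ILFB and 24, 1, 22, 10 and 0 in ILFT (log2 fold change for epithelium against ILF 2.19, adjusted p = 0.0803). Cyp3a25 was sparser, at 17 UMIs in FAET, 19 in FAEB and 18 in VB, against 4 in each of ILFB and ILFT (2.86, adjusted p = 0.0757). These sums are not scaled for depth, and by mean UMIs per 10,000 Cyp3a25 was highest in FAET. Gstp1 was seen in 24 of 25 libraries, at means of 2.18, 3.47 and 2.92 UMIs per 10,000 in FAET, FAEB and VB, against 2.65 and 1.68 in ILFB and ILFT. The ILFB mean includes repeat 5, whose markers are epithelial and whose Gst sum was 18.7 (median of the segment 3.74). With edgeR the log2 fold change of Gstp1 was 0.46 over the 25 libraries and 2.41 (adjusted p = 0.0435) over the 19. Aldh2, which oxidizes acetaldehyde in mitochondria, was also seen in both tissues, in 21 libraries, at 0.725, 0.574 and 0.592 against 0.551 and 1.51 (log2 fold change -0.40). Ces2g had 0, 0, 22, 0 and 21 UMIs in FAET and Aldh9a1 16, 0, 19, 1 and 0, so that few libraries carried their FAET means, the highest of the 5 segments. The 22 members not named by the rule had 15 to 159 UMIs, and 17 were higher and 5 lower in epithelium than ILF, with log2 fold changes from -1.25 to 2.90 and none past the test.

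By highest mean, 22 members peaked in VB, 18 in FAEB, 7 in FAET, 6 in ILFT and 4 in ILFB. Of the P450s 11 of 19 peaked in VB, and of the glutathione transferases 7 of 12 in FAEB. The members Cyp1a1, Cyp2c68, Cyp3a25, Ces2g, Aldh9a1, Sult2b1 and Ugt1a10 peaked in FAET. Neighbouring means in these orders mostly differed by less than the SD of 5 repeats, as for Adh1 at 4.13 ± 2.42 in FAEB and 2.74 ± 2.78 in VB.

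**Figure D5:**
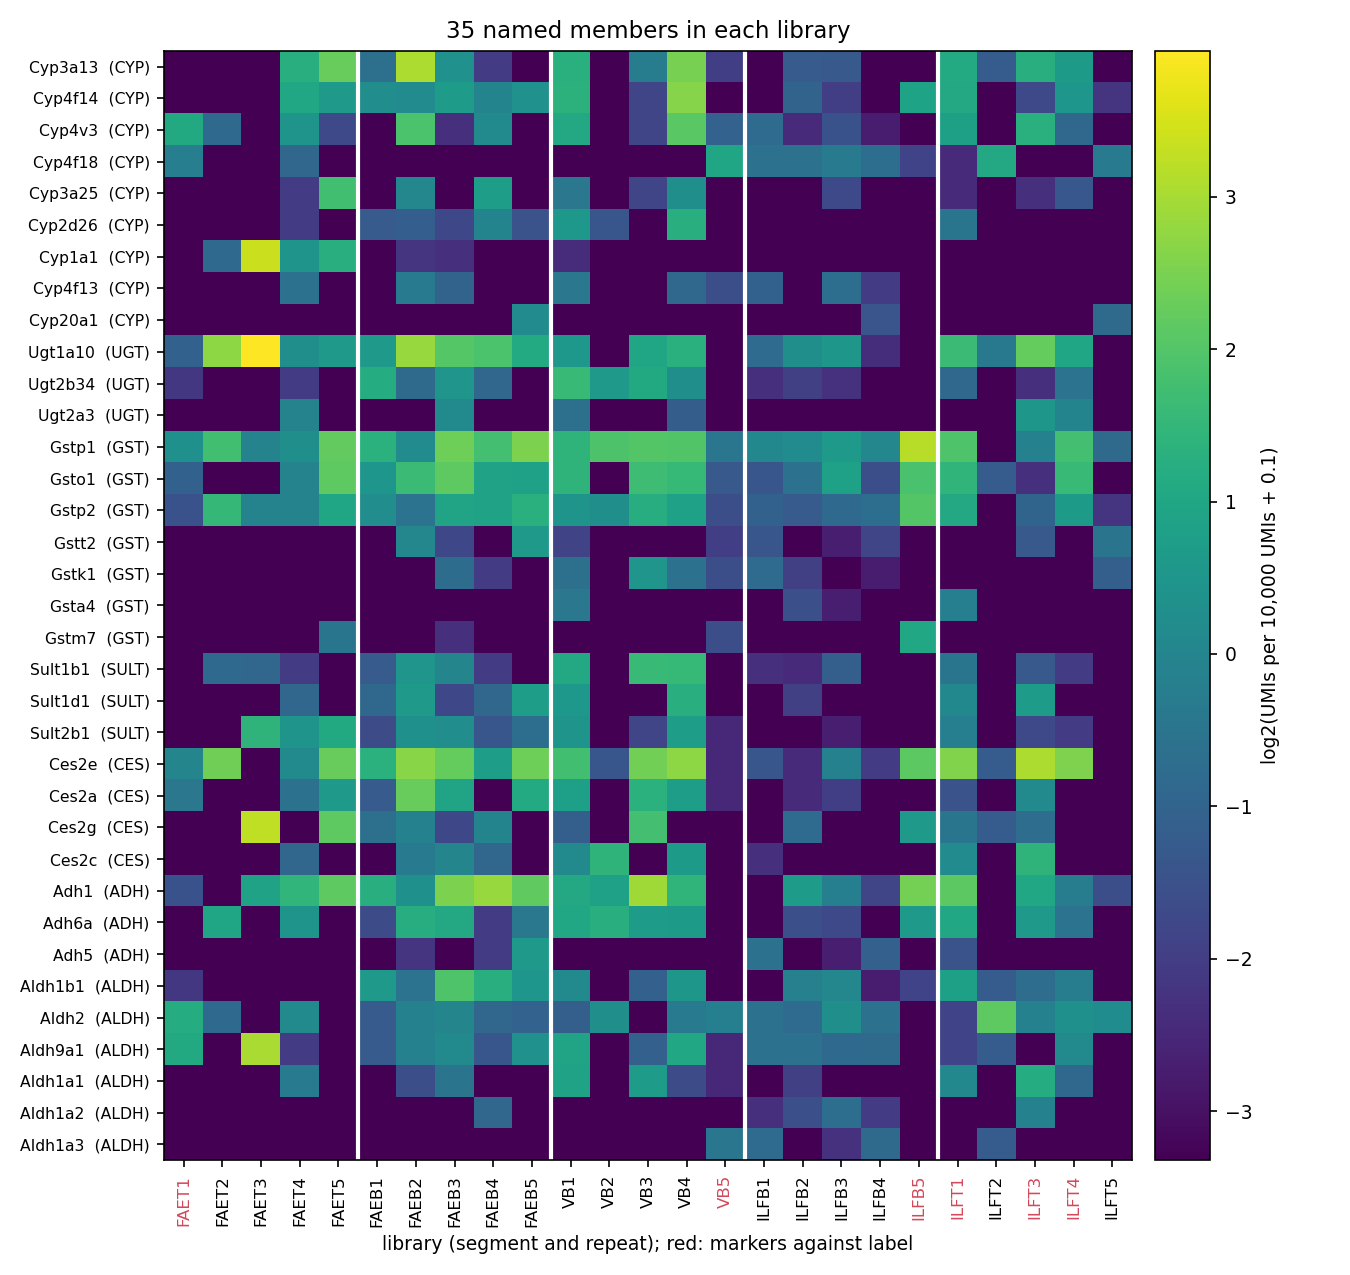
Level of the 35 named members in each of the 25 libraries, as log2(UMIs per 10,000 UMIs + 0.1), with the darkest colour at 0 UMIs, genes grouped by family and libraries by segment and repeat. Library names in red are those whose markers go against the label; ILFT1, ILFT3 and ILFT4 carry Ces2e at 5.91, 8.20 and 5.81 UMIs per 10,000, while FAET1 and VB5 carry 0.895 and 0.0782.

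The machinery around the enzymes was compared in 4 further lists. Of 13 xenobiotic sensors and regulators tested, 9 had a positive and 4 a negative log2 fold change for epithelium against ILF, with a median of 0.49 and 0 past the test. Of 16 redox partners and suppliers of conjugates, 11 were positive and 5 negative, with a median of 0.25 and 0 past the test, and Por, which passes electrons to the P450s, had 15 UMIs in FAET, 42 in FAEB and 28 in VB, against 9 in ILFB and 17 in ILFT (log2 fold change 1.76, adjusted p = 0.255). Of 21 other phase I and phase II enzymes, 15 were positive and 6 negative, with a median of 0.44 and 0 past the test. Maoa, which oxidizes amines, had the smallest p there (2.37, adjusted p = 0.0803), at 9, 58 and 91 UMIs in FAET, FAEB and VB, against 4 and 31 in ILFB and ILFT. Of 5 drug efflux transporters, 3 were positive and 2 negative, with a median of 0.84 and 0 past the test, and Abcg2 (2.05, adjusted p = 0.19) and Abcc2 (1.41, adjusted p = 0.269) had the smallest p. Over the 19 libraries 3 of 10 sensors, 0 of 14 redox partners, 6 of 20 other enzymes and 1 of 5 transporters passed as higher in epithelium, among them Nfe2l2 (3.59), Mgst2 (4.83), Mgst3 (4.58), Fmo5 (4.60), Maoa (3.85), Xdh (3.17) and Abcc2 (3.53), and none passed as lower. Over all genes 4.31% passed as higher in this fit.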

How the data were processed

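The authors aligned reads of 25 mcSCRB-seq libraries to GRCm38 (Ensembl 84 annotation) with zUMIs and STAR (no version was found for either), after bcl2fastq 2.15.0.4 (submitters' notes). The values deposited are raw UMI counts with no normalization. The labels also name another library kit for such samples. Groups, repeats and mice came from the labels, and 0 columns lacked a sample. Totals were 21529 to 213736 UMIs per library.

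Members and lists were chosen with earlier results of these data known. Tests covered genes reaching 3 UMIs in 3 or more libraries and used edgeR 4.0.16 in R 4.3.3 (glmQLFit and glmQLFTest, TMM factors, terms for segment and mouse, 25 libraries), with Benjamini-Hochberg adjustment within each of 6 comparisons, and checked on simulated data. The SE is the log2 fold change divided by the root of F. Alternatives were RLE factors, library totals, the study's sum, limma-voom (limma 3.58.1), DESeq2 1.42.0, other count minimums, repeat as a block, each repeat left out and, added after the data were seen, the 6 libraries left out (with and without the block), FAET repeat 1 and VB repeat 5. TMM scaling rests on most genes being stable, and the median over all genes moved with the scaling: under the study's sum by 0.13 (epithelium against ILF), 0.27 (FAET over VB), 0.23 (FAET over FAEB) and -0.33 (ILFB over ILFT), under library totals by 0.27, 0.35 and -0.26 in the last 3 of these, and under RLE factors by 0.22 (FAET over FAEB) and -0.15 (FAEB over VB).

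Repeats share an animal and sections by design. Deviations from segment means correlated at 0.022 between libraries of a repeat (50 pairs) and -0.009 between other repeats of the mouse. No pair of libraries agreed within sampling noise, the closest having a chi-square of 5.87 per degree of freedom. Promoters are RefSeq sequences on GRCm38.p6, and gene positions are from GENCODE M21.

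Named genes were those with an adjusted p under 0.05, the 3 most abundant of each family, fixed retinoid and AhR genes, the 4 smallest p on each side of epithelium against ILF and the 2 smallest on each side of the other pairwise comparisons, and up to 4 genes of each other list. Genes outside it were chosen after their values were seen. Intervals and limits for 0 counts cover counting error only. Python 3.11.15, numpy 2.4.6, pandas 2.3.3 and matplotlib 3.10.9 were used.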

Additional observations from a re-analysis of the deposited data

Results flagged for a closer look

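The 7 family sums, the member sum and the 4 members that passed a test were examined within each segment, 60 groups of 5 libraries, for a library far from the others, and 12 were found. Chance gives about 1 in 20 for normally distributed values, and whether these values are so distributed was not tested. The rate does not hold for a group with UMIs in a single library, where the zeros fix the outcome. In FAET, Cyp1a1 reached 10.3 UMIs per 10,000 in repeat 3 (median of the 5 libraries 1.27) and Cyp2d26 0.141 in repeat 4, at 1 UMI, with 0 in the others. In FAEB, Cyp2d26 reached 0.868 in repeat 4 (median 0.327). In VB, Cyp1a1 reached 0.0910 in repeat 1, at 1 UMI.

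In ILFB, repeat 5, whose markers are epithelial, had the highest Gst (18.7, median 3.74), Ces (5.70, median 0.645) and Adh sums (6.77, median 1.03), and repeat 3 the highest Cyp sum (4.24, median 2.59) and Sult2b1 (0.0517, at 1 UMI). In ILFT, Ces2a reached 1.02 in repeat 3, Cyp2d26 0.608 in repeat 1 and Sult2b1 0.782 in repeat 1 (median 0.145), all libraries with epithelial markers.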

How the results depend on the processing

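For epithelium against ILF 2 members passed as reported. DESeq2, no count minimum and a minimum of 10 UMIs in 3 libraries gave 0 (DESeq2 gave an adjusted p to 6 of 57 members, and the higher minimum left 28), limma-voom 4, RLE factors, library totals and the study's sum 3 each (Cyp1a1 added), and leaving out each repeat 0 to 2. The 19 libraries whose markers fit the label gave 22, and 9 with the replicate block, leaving out FAET repeat 1 gave 5 and VB repeat 5 gave 4. Over all genes the count was 302 as reported, 0 with DESeq2 or 10 UMIs, 142 with no minimum and 33 with limma-voom. RLE factors, library totals and the study's sum gave 430, 374 and 326 genes, and leaving out each repeat 0 to 414. The count was 1516 over the 19 libraries and 808 there with the block. It was 633 of 9763 without FAET repeat 1 and 719 of 9588 without VB repeat 5. Over all 5 segments 2 members passed as reported, 1 with RLE factors, library totals, limma-voom, no minimum or the replicate block, 0 with DESeq2 or 10 UMIs, 0 to 4 with each repeat left out, 19 over the 19 libraries, 10 with the block there, 2 without FAET repeat 1 and 5 without VB repeat 5. Among all genes that test called 178 as reported, 1593 over the 19 libraries and 863 there with the block. It called 319 without FAET repeat 1 and 547 without VB repeat 5. In the other 4 comparisons 0 members passed under all 17 alternatives. The member median for epithelium against ILF was positive under each, from 0.44 without repeat 4 to 2.93 over the 19 libraries (2.68 there with the block). The repeat block is the paired fit, and it changed no other call of a member over the 25 libraries than that of Cyp2d26. Where no cause is shown by the number of genes or libraries, the cause was not tested. Depth limits most members: in the shallowest library 9 of 57 were detected.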

Other observations

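Values are given here for the members beside the 18 epithelial markers, with no test between segments. For each UMI of those markers there were 0.815 ± 0.489 member UMIs in FAET (SD, n = 4 libraries whose markers fit the label), 0.656 ± 0.142 in FAEB (n = 5) and 0.807 ± 0.229 in VB (n = 4), with ranges that overlapped (0.322 to 1.48, 0.517 to 0.883 and 0.474 to 0.979). The 3 ILFT libraries with epithelial markers had 0.500 to 0.554. In ILFB the ratio reached 4.62, in a library with 1.59 epithelial marker UMIs per 10,000. Just below the count minimum were Cyp7b1 and Cyp27a1, enzymes of sterol and bile acid metabolism, with 23 UMIs each, in 6 and 9 libraries.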
